A study of Macaca fascicularis with 64 samples.

Results

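The α-cells and β-cells of the same cynomolgus monkeys were compared with each other directly, so that each monkey served as its own reference. A retained cell was taken as an α-cell where glucagon (GCG) was the highest of the 4 hormone transcripts GCG, INS (insulin), SST (somatostatin) and PPY (pancreatic polypeptide), and as a β-cell where INS was the highest. The top hormone also had to reach 20000 counts per 1000000 macaque UMIs (CPM, where a UMI is a tag that marks 1 captured RNA molecule) and at least 2 times the second hormone. Of 6141 barcodes, 5908 had over 800 macaque genes and over 10000 UMIs, spike-ins included, and 4401 of these were α-cells and 1086 were β-cells by the rule, together 5487. Another 101 retained cells had SST and 58 had PPY past the same rule, and 262 had no hormone past it.

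The cells came from 16 monkeys, 4 young females, 4 young males, 4 old females and 4 old males, which were described as healthy and for which no genotype or treatment was named. Islets were picked by hand from the pancreas tail, single cells were taken by mouth pipette, and 4 libraries per monkey were made by a modified STRT protocol that tags cells and molecules. The tissue of 1 monkey was collected per day, so the day and the monkey were the same variable, and a comparison of types within a monkey was also within its day. The 64 libraries used the same 96 cell barcodes, each found in at least 63 of them, so a cell is identified by its library and barcode together.

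α-cells and β-cells are the main endocrine cells of the islet and oppose each other in the control of blood glucose. β-cells take up and metabolize glucose, close their ATP-sensitive potassium channels, admit calcium and release insulin, whereas α-cells release glucagon when glucose is low and respond to amino acids and adrenaline. Both types make their hormone as a precursor in the endoplasmic reticulum (ER), cut it with prohormone convertases in secretory granules, and derive from shared endocrine progenitors under partly shared transcription factors.

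Each monkey gave between 165 (old female 1) and 359 (young female 2) α-cells, with a median of 278. β-cells ranged from 8 in young female 2 to 189 in old female 4, with a median of 65. The share of β-cells among the cells of both types was thus between 2.18% and 52.1%, with a median of 18.7%, and 10 monkeys had at least 30 cells of each type. The median cell held 64894 macaque UMIs among α-cells and 76826 among β-cells. Summed over the cells of a monkey, α-cells held between 12249078 and 26709642 macaque UMIs and β-cells between 358312 and 18704217, so the β-cell values of a monkey with few β-cells carry a larger counting error. Monkeys, not cells, were the replicates.

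The values of the 4 hormones chose the cells and are given as a description. The mean GCG level over the cells of a monkey was between 76756 and 126239 CPM in α-cells (median 90567) and between 16155 and 33301 CPM in β-cells (median 22911). The mean INS level was between 59986 and 112723 CPM in β-cells (median 78129) and between 1702 and 16550 CPM in α-cells (median 6804). Each type thus carried the hormone of the other in every monkey. In 1085 of the 1086 β-cells the second hormone was GCG, and in 4010 of the 4401 α-cells (91.1%) it was INS. The median ratio of the top to the second hormone was 14.7 in α-cells and 3.46 in β-cells. The rule therefore cut closer to β-cells, of which 148 had a ratio between 2 and 2.5, against 32 α-cells, and the nearest cells outside the rule had ratios of 1.99 (GCG on top) and 1.996 (INS on top).

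Genes other than hormones that mark one type were also found in the other, at levels that differed from gene to gene. In β-cells, the level relative to that in α-cells had a median over the 16 monkeys of 47.0% for TTR (transthyretin), 17.1% for PCSK2, 8.19% for CRYBA2, 7.13% for IRX2, 6.84% for TSPAN12, 6.04% for FAP and 5.80% for FEV. GCG itself stood at 26.9% (20.6 to 39.1% in single monkeys). In α-cells, the level relative to that in β-cells had a median of 9.75% for ERO1B, 8.05% for CASR, 2.89% for GAD2, 2.24% for PCSK1, 1.69% for TMEM132B, 1.34% for IAPP and 0.709% for SLC2A2, and 8.57% for INS (1.77 to 25.5%). Free RNA in the suspension, wells with 2 cells and expression in the cell itself all give such counts and cannot be told apart here, and each fold change is the difference between the sums as counted.

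**Figure D1:**
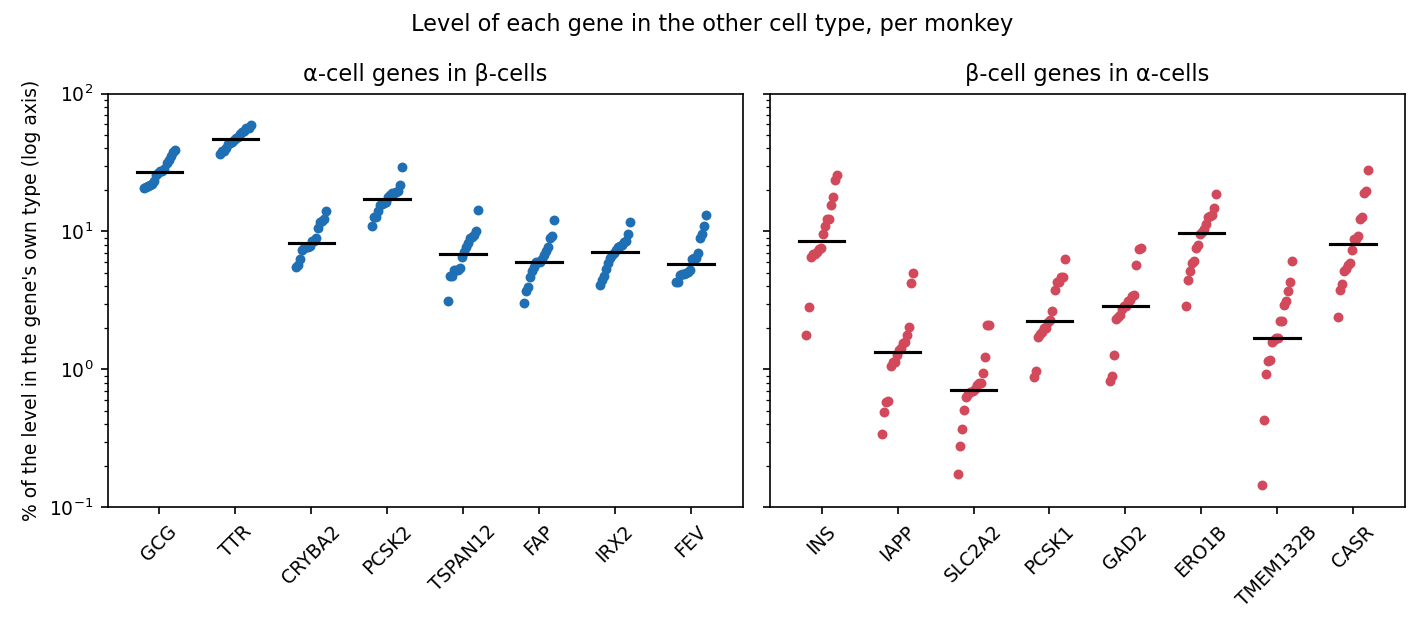
Each point is 1 of 16 monkeys and shows the level of a gene in the type that it does not mark as a percentage of its level in its own type, on a log axis, with the median as a bar. α-cell genes in β-cells are on the left, from TTR at a median of 47.0% to FEV at 5.80%, and β-cell genes in α-cells are on the right, where SLC2A2 had a median of 0.709%.

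The level of IAPP in α-cells went with the share of β-cells in the monkey's sample. IAPP ranged from 11.2 CPM in young female 2, where 2.18% of the cells of both types were β-cells, to 120 CPM in old female 4, where 52.1% were. Over the 16 monkeys Pearson's r was 0.73 (permutation test, p = 0.00142, adjusted over 6 relations 0.00852) and Spearman's rho 0.71 (adjusted p = 0.0155), and r was 0.51 without the 2 monkeys farthest from the median share. For SLC2A2 r was 0.64 (permutation test, adjusted p = 0.0243), but rho was 0.52 (adjusted p = 0.120) and r without the 2 monkeys farthest from the median share was 0.26, so that relation rested on those monkeys. PCSK1 in α-cells (r = 0.40, adjusted p = 0.255) and IRX2, CRYBA2 and FEV in β-cells (r between -0.02 and 0.32) did not pass 0.05 in the same permutation test. Each monkey was collected on its own day, so a relation across monkeys cannot be told apart from one across days.

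As sums, the listed markers of each type were higher in the type that the hormone rule gave. The 14 listed β-cell markers summed to between 214 and 665 CPM in α-cells and to between 4722 and 10686 CPM in β-cells, and the 12 listed α-cell markers other than TTR summed to between 8879 and 14089 CPM in α-cells and to between 1734 and 3076 CPM in β-cells. Among the α-cell markers, SMOC1 was not distinct, with a median level in β-cells of 109% of that in α-cells. By the same measure ALDH1A1 was at 42.5%, DPP4 at 34.9% (0 to 167% in single monkeys) and TM4SF4 at 13.2%. Acinar markers reached 3842 CPM in the α-cells of 1 monkey, with medians of 7.82 CPM in α-cells and 3.16 CPM in β-cells. The summed δ-cell markers had medians of 66.0 CPM in α-cells and 25.6 CPM in β-cells, and the PP-cell markers 71.1 and 44.7 CPM. The summed markers of ductal, stellate, endothelial, immune, Schwann and erythroid cells had medians of at most 49.8 CPM in α-cells and 29.6 CPM in β-cells.

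The test across genes asked which transcripts took a larger share of one type than of the other in the same monkey. UMIs were summed per monkey and type, the 4 hormones were left out of the sums and of their totals, and the 32 sums were fitted with edgeR's quasi-likelihood test with the monkey as a block. Levels are given as CPM of these sums after TMM scaling, and differences as log2 fold changes of β-cells against α-cells, so that a positive value is higher in β-cells. Of 11974 genes tested, 2189 (18.3%) were higher in β-cells and 3137 (26.2%) higher in α-cells at a Benjamini-Hochberg adjusted p under 0.05. With a difference of over 2-fold as well, 743 (6.21%) were higher in β-cells and 1860 (15.5%) in α-cells. In 113 genes (0.944%) the lowest β-cell sum was above the highest α-cell sum, and in 182 genes (1.52%) the lowest α-cell sum was above the highest β-cell sum, so that the 16 monkeys did not overlap.

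This split depended on the scale and on the number of cells. Scaled to the spike-ins, which measures RNA per cell rather than a share of it, the median of all genes moved from a log2 fold change of -0.11 to 0.11, and 3121 genes were higher in β-cells and 2087 in α-cells, so that 59.9% of the calls were higher in β-cells against 41.1% on the main scale. With limma on means over cells of log values it was 58.8%. With as many α-cells as β-cells drawn from each monkey, 791 genes were higher in β-cells and 1072 in α-cells past 2-fold, of 10408 tested. No gene called on the main scale was called in the opposite direction under the other settings. Scaled to the spike-ins, the medians of 7 lists near 0 turned from negative to positive, those of nuclear-coded respiratory genes, the citric acid cycle, glucose entry, lysosomes, NF-kB genes, imprinted genes and the unfolded protein response.

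**Figure D2:**
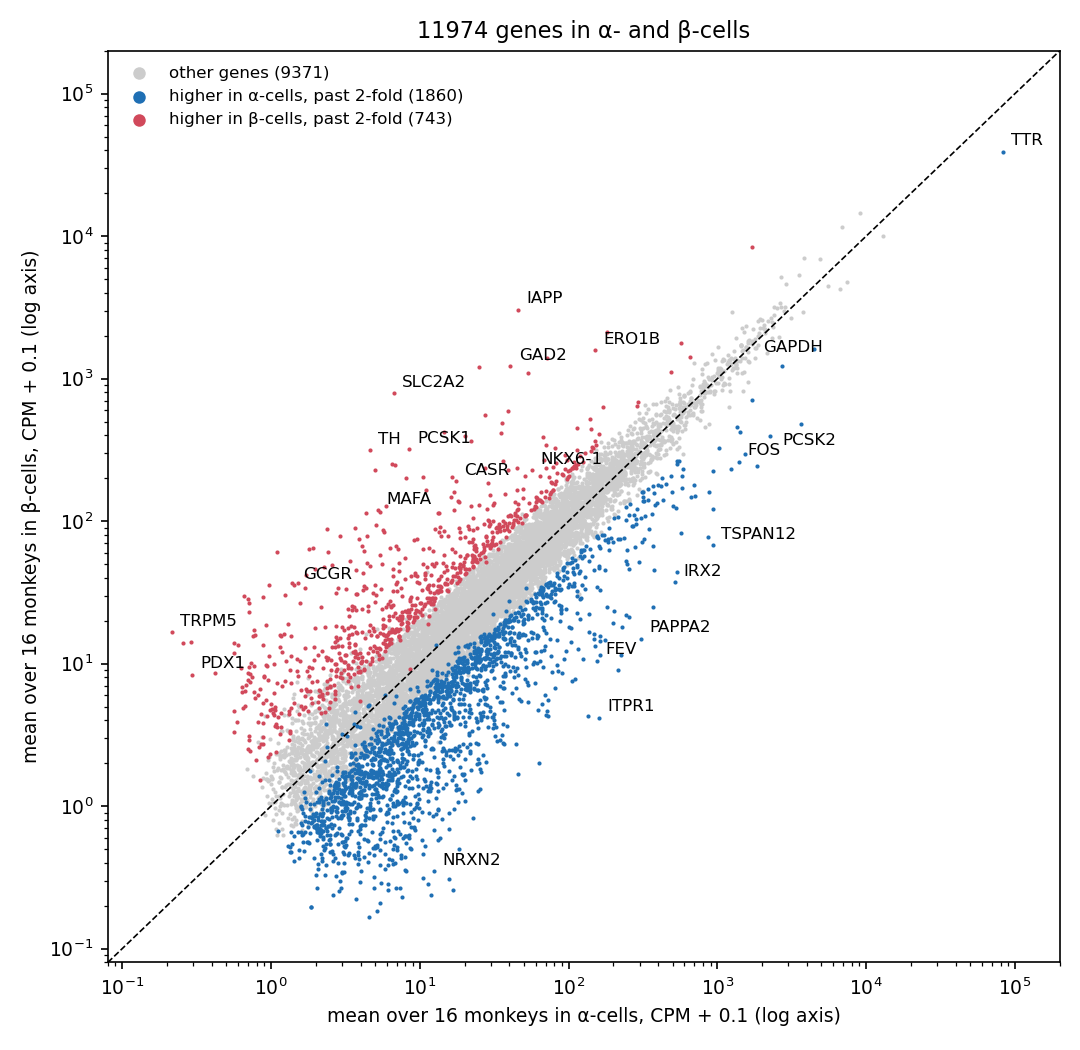
Each of 11974 genes is plotted by its mean level over the 16 monkeys in α-cells (horizontal) and β-cells (vertical), both as CPM plus 0.1 on log axes, with the dashed line at equal levels. The 743 genes called higher in β-cells past 2-fold lie above the line in red and the 1860 called higher in α-cells lie below it in blue, with SLC2A2 and IAPP far above it and ITPR1 far below it.

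The genes that differed most toward β-cells, among those with a mean of at least 50 CPM in β-cells and higher there in all 16 monkeys, were SLC2A2, TH, IAPP, LRRTM3, TMEM132B, CRYBG3, RGS16, ERICH5, BEST3, PCSK1, TSPAN8 and GAD2. SLC2A2, the glucose transporter GLUT2, was at 1.54 to 19.6 CPM in α-cells (median 6.42) and at 415 to 1403 CPM in β-cells (median 810), a log2 fold change of 7.11 ± 0.22 (SE, edgeR adjusted p = 2.83e-20). The highest α-cell level, in old female 4, was far below the lowest β-cell level, in young female 4. IAPP, which encodes the amyloid-forming peptide that is released with insulin, was at 11.2 to 120 CPM in α-cells (median 36.1) and at 1019 to 5634 CPM in β-cells (median 2813), with a log2 fold change of 6.31 ± 0.24 (edgeR adjusted p = 2.29e-18). TH, the rate-limiting enzyme of catecholamine synthesis, was at 0.166 to 33.6 CPM in α-cells (median 2.14) and at 54.4 to 1243 CPM in β-cells (median 227), a log2 fold change of 6.64 ± 0.26. The highest TH levels of both types were in old female 4, and the groups did not overlap.

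GAD2, which makes the transmitter GABA from glutamate, was at 9.35 to 114 CPM in α-cells (median 34.9) and at 690 to 1578 CPM in β-cells (median 1287), a log2 fold change of 5.16 ± 0.21. RGS16, a regulator of G-protein signalling, was at 2.18 to 62.7 CPM in α-cells (median 22.3) and at 39.8 to 3174 CPM in β-cells (median 1111), with a log2 fold change of 5.43 ± 0.19. RGS16 was the only one of these 12 genes whose ranges overlapped, because its β-cell level in young female 1 was low, and its level was higher in β-cells of that monkey too. The other genes, LRRTM3, TMEM132B, CRYBG3, ERICH5, BEST3 and TSPAN8, had log2 fold changes between 5.18 (TSPAN8) and 6.12 (LRRTM3), with median levels in β-cells between 50.8 CPM (BEST3) and 245 CPM (ERICH5).

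The genes that differed most toward α-cells under the same rule were ITPR1, IGSF21, PAPPA2, IMPG1, CACNG4, CDO1, FAP, FEV, DPYSL5, MAOB, TSPAN12 and IRX2. ITPR1, an inositol trisphosphate receptor that releases calcium from the ER, was at 84.8 to 234 CPM in α-cells (median 153) and at 1.77 to 9.11 CPM in β-cells (median 3.62), a log2 fold change of -5.39 ± 0.18 (edgeR adjusted p = 1.21e-19). PAPPA2, a protease that cleaves IGF-binding proteins, was at 51.1 to 1074 CPM in α-cells (median 264) and at 2.96 to 30.03 CPM in β-cells (median 12.9), with a log2 fold change of -4.37 ± 0.15. Its α-cell level varied by monkey, from old female 3 at the bottom to young male 2 at the top, yet the groups did not overlap. FAP, a membrane-bound serine protease, was at 95.5 to 888 CPM in α-cells (median 337) and at 2.89 to 64.6 CPM in β-cells (median 27.3), a log2 fold change of -4.04 ± 0.12, and was lowest in young male 2 and highest in young male 3 in both types.

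TSPAN12, a tetraspanin, had the highest level of the 12, at 626 to 1658 CPM in α-cells (median 910) and at 27.0 to 149 CPM in β-cells (median 62.4), a log2 fold change of -3.90 ± 0.13. MAOB, a monoamine oxidase, was at 73.0 to 143 CPM in α-cells (median 99.9) and at 3.54 to 15.8 CPM in β-cells (median 6.86), a log2 fold change of -3.93 ± 0.14. The remaining genes were IGSF21 (log2 fold change -5.04), IMPG1 (-4.15), CACNG4, an auxiliary calcium channel subunit (-4.13), CDO1, which oxidizes cysteine (-4.07), and DPYSL5 (-3.98). IMPG1 and CDO1 were the 2 genes of the 12 whose ranges overlapped between types.

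Transcription factors separated the types in both directions. The authors had already named NKX6-1, MAFA and RXRG for β-cells and IRX2 and FEV for α-cells from the cells of these monkeys. The lists of factors were also written with earlier results of these data known, so their counts are a description. All 6 tested of the 10 listed β-cell factors were higher in β-cells past 2-fold (median log2 fold change 3.86), against 6.21% of all genes. Of the 6 tested α-cell factors, 5 were higher in α-cells past 2-fold (median -3.94), against 15.5% of all genes. With equal cell numbers, 5 β-cell factors and 3 α-cell factors were called in these directions at an adjusted p under 0.05 (edgeR). With cells thinned to 10000 UMIs they were 4 and 3, and fewer genes were tested under both settings. RXRG, a retinoid receptor, was at 4.83 to 28.0 CPM in α-cells (median 16.2) and at 142 to 259 CPM in β-cells (median 196), a log2 fold change of 3.76 ± 0.19. MAFA, an activator of the insulin gene, was at 0.687 to 21.6 CPM in α-cells (median 4.63) and at 10.5 to 225 CPM in β-cells (median 108), a log2 fold change of 4.69 ± 0.23. RXRG did not overlap between types, whereas MAFA did, through the α-cells of old female 1 and the β-cells of young female 3. NKX6-1, which represses α-cell genes in β-cells, had a smaller difference, from 37.4 to 98.1 CPM in α-cells (median 57.9) to 104 to 389 CPM in β-cells (median 210), with a log2 fold change of 1.96 ± 0.11 and no overlap.

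PDX1, the factor of pancreas formation and of insulin transcription, was captured at low counts, at most 0.540 CPM in α-cells and between 0 and 23.2 CPM in β-cells (median 7.03), with a log2 fold change of 5.50 ± 0.47. It was higher in β-cells in 15 of 16 monkeys, with 0 counts in the β-cells of young female 2, which had 8 cells. A count of 0 allows up to 3 UMIs, which were worth 0.178 to 9.48 CPM in the β-cell sums of the 16 monkeys, and it covers counting error only. SIX2 (3.96 ± 0.44) and the imprinted zinc finger gene PLAGL1 (1.21 ± 0.19) were also higher in 15 of 16.

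IRX2, an Iroquois homeobox factor, had the highest level of the α-cell factors, at 328 to 732 CPM in α-cells (median 541) and at 18.7 to 71.5 CPM in β-cells (median 32.6), a log2 fold change of -3.88 ± 0.11. FEV, an ETS factor known from serotonin neurons, was at 87.5 to 251 CPM in α-cells (median 157) and at 3.74 to 22.1 CPM in β-cells (median 9.19), a log2 fold change of -4.003 ± 0.14. Neither gene overlapped between types. IRX1 had a log2 fold change of -2.70 ± 0.21.

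Of the 13 tested factors listed as shared by endocrine cells, 10 were higher in α-cells, 1 in β-cells and 2 were not called, against 26.2% and 18.3% of all genes, with a median log2 fold change of -0.85. ISL1, a LIM homeobox factor, was at 346 to 730 CPM in α-cells (median 497) and at 151 to 515 CPM in β-cells (median 250), with a log2 fold change of -1.07 ± 0.08, and was higher in α-cells in all 16 monkeys. RFX6, a factor of endocrine differentiation (-0.96 ± 0.08), PAX6, a paired-box factor that all islet endocrine cells use (-0.55 ± 0.07), HNF4A (-1.66 ± 0.21) and ST18 (-1.08 ± 0.16) were higher in α-cells in all 16 monkeys as well. NEUROD1 (-0.74 ± 0.13) was higher in α-cells in 15 and FOXA2 (-0.70 ± 0.13) in 14. GLIS3, a zinc finger factor mutated in a form of neonatal diabetes, was the exception, with a log2 fold change of 4.07 ± 0.60 at a median of 4.86 CPM in β-cells. NKX2-2 was not called (0.13 ± 0.11, edgeR adjusted p = 0.371).

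The 2 prohormone convertases differed in opposite directions. PCSK1, which makes insulin from proinsulin together with PCSK2, was at 1.74 to 16.8 CPM in α-cells (median 8.92) and at 96.4 to 671 CPM in β-cells (median 279), a log2 fold change of 5.30 ± 0.20. PCSK2, the convertase that releases glucagon from its precursor, was at 1292 to 3623 CPM in α-cells (median 2302) and at 196 to 699 CPM in β-cells (median 357), a log2 fold change of -2.56 ± 0.08. The ranges of the types did not overlap for either gene.

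Of the 13 tested granins and processing genes, 6 were higher in β-cells, 6 in α-cells and 1 was not called, against 18.3% and 26.2% of all genes, with a median of -0.43 (-0.08 with equal cell numbers and -0.07 with cells thinned to 10000 UMIs). CHGA, a granin that drives granule formation, was at 555 to 4942 CPM in α-cells (median 867) and at 133 to 719 CPM in β-cells (median 265), with a log2 fold change of -2.18 ± 0.15. Young females 1 and 4 had by far the highest CHGA levels in α-cells and the highest in β-cells as well. CHGB, its relative, was at 569 to 2113 CPM in α-cells (median 1163) and at 872 to 7470 CPM in β-cells (median 1898), with a log2 fold change of 0.96 ± 0.18, and was higher in β-cells in 13 of 16 monkeys. SCG2 (-1.32 ± 0.15), the PCSK2 chaperone SCG5 (-0.67 ± 0.07), the PCSK1 inhibitor PCSK1N (-0.66 ± 0.09) and the glutaminyl cyclase QPCT (-0.43 ± 0.07) were higher in α-cells. SCG3 (0.63 ± 0.08), the amidating enzyme PAM (0.81 ± 0.13) and the carboxypeptidases CPD (1.03 ± 0.10) and CPE (0.34 ± 0.09) were higher in β-cells.

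Glucose entry and phosphorylation had few members past the filter on low counts, 9 of 16. Besides SLC2A2, the called genes higher in β-cells were PFKFB2, a regulator of glycolytic flux, and SLC2A13, a proton-coupled inositol transporter. PFKFB2 was at 8.71 to 66.0 CPM in α-cells (median 15.3) and at 131 to 706 CPM in β-cells (median 346), a log2 fold change of 4.19 ± 0.16 without overlap. SLC2A13 had a log2 fold change of 3.23 ± 0.19, also without overlap. PFKFB3 (-2.58 ± 0.45) and SLC2A8 (-1.43 ± 0.30) were higher in α-cells. Of 10 glycolytic genes, ENO1 (0.79 ± 0.08) stood above its α-cell level in all 16 monkeys and GAPDH (-0.37 ± 0.08) was higher in α-cells in 14.

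**Figure D3:**
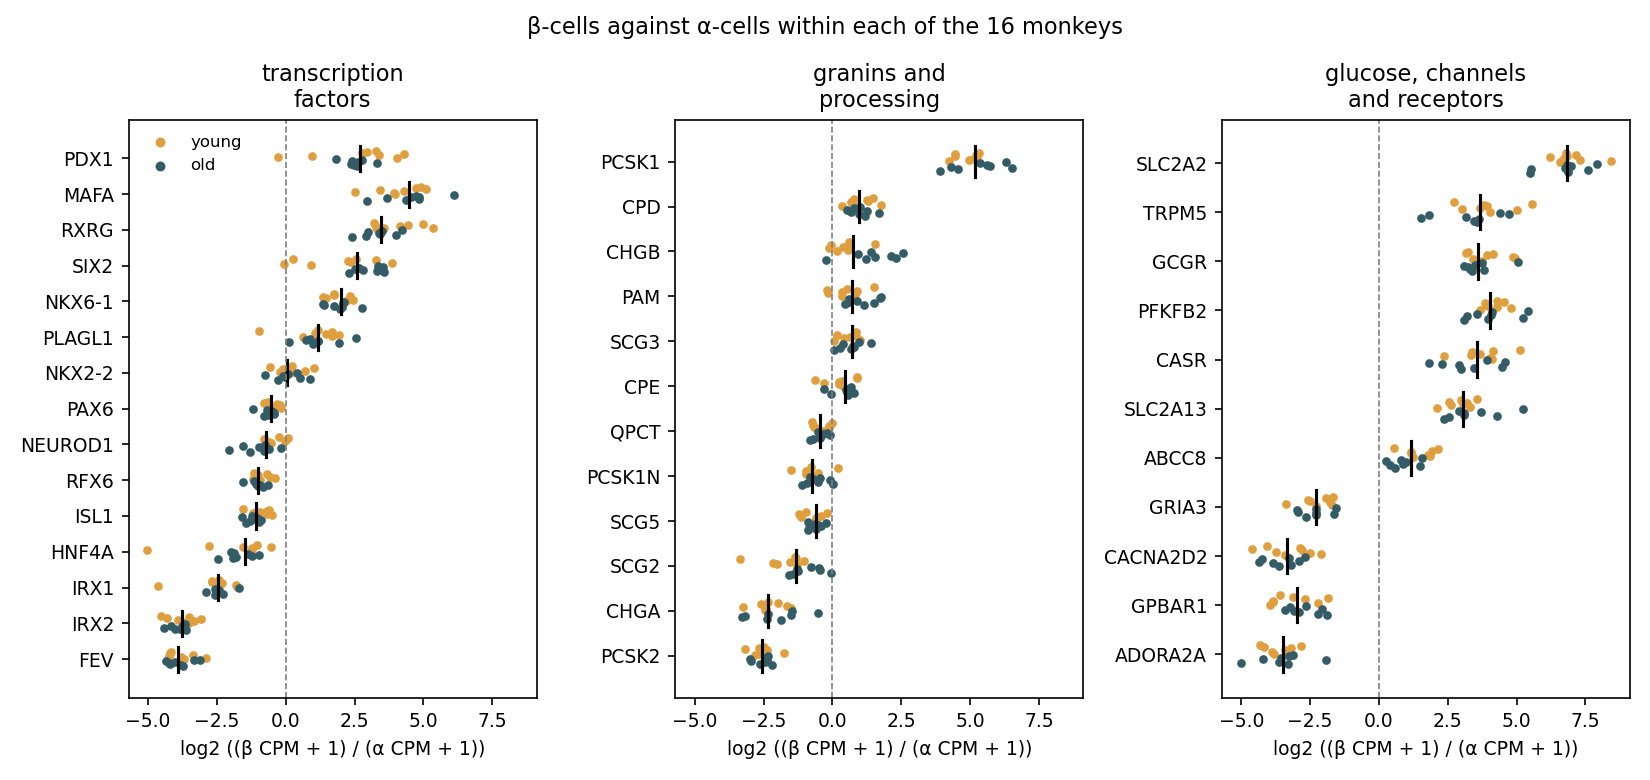
Each point is 1 of the 16 monkeys (orange young, dark old) and shows the log2 ratio of the CPM in its β-cells to that in its α-cells after 1 CPM was added to both, with the median as a bar, so that points to the right of the dashed line are higher in β-cells. PCSK1, SLC2A2 and GCGR lie to the right and PCSK2, IRX2 and ADORA2A to the left in all 16 monkeys, whereas NKX2-2 lies on both sides.

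Of 20 tested receptor genes, 11 were higher in α-cells, 2 in β-cells and 7 were not called, against 26.2% and 18.3% of all genes, which lean to α-cells too, with a median log2 fold change of -1.18. The 2 genes higher in β-cells were GCGR, the glucagon receptor, and CASR, the calcium-sensing receptor. GCGR was at 0.137 to 3.23 CPM in α-cells (median 0.892) and at 10.2 to 130 CPM in β-cells (median 36.2), a log2 fold change of 4.88 ± 0.27. CASR was at 5.23 to 42.1 CPM in α-cells (median 13.97) and at 103 to 266 CPM in β-cells (median 180), a log2 fold change of 3.63 ± 0.21. Neither overlapped between types. Toward α-cells, ADORA2A, a receptor for adenosine, was at 39.4 to 98.4 CPM in α-cells (median 65.1) and at 1.38 to 23.1 CPM in β-cells (median 4.25), a log2 fold change of -3.80 ± 0.22. The bile acid receptor GPBAR1 (-3.73 ± 0.37) and the AMPA-type glutamate receptor subunit GRIA3 (-2.29 ± 0.13) were higher in α-cells in all 16 monkeys, without overlap.

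Of 34 tested potassium, calcium and sodium channel genes, 9 were higher in β-cells and 16 in α-cells, against 18.3% and 26.2% of all genes (median -0.30, and -0.50 with cells thinned to 10000 UMIs). TRPM5, a calcium-activated cation channel, had 0 counts in the α-cells of 5 monkeys and at most 0.414 CPM in the others, and was at 2.32 to 59.0 CPM in β-cells (median 12.4), a log2 fold change of 7.05 ± 0.52. ABCC8, the sulfonylurea receptor subunit of the ATP-sensitive potassium channel, was well expressed in both types, at 235 to 1457 CPM in α-cells (median 540) and at 464 to 2109 CPM in β-cells (median 1416), and was higher in the β-cells of each of the 16 monkeys (1.17 ± 0.12). KCNMA1, a calcium-activated potassium channel (3.01 ± 0.30), and KCNG3, a modifier of voltage-gated potassium channels (2.501 ± 0.18), were higher in β-cells in 15 and 16 monkeys. The calcium channel subunits CACNG4 (-4.13 ± 0.19) and CACNA2D2 (-3.65 ± 0.20) were higher in α-cells in all 16.

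The exocytosis genes had 14 members higher in α-cells and 6 in β-cells of 32 tested, against 26.2% and 18.3% of all genes (median -0.53, and -0.28 with cells thinned to 10000 UMIs). CPLX1, a complexin that clamps SNARE complexes, was at 29.0 to 93.1 CPM in α-cells (median 55.6) and at most 24.2 CPM in β-cells (median 12.4), a log2 fold change of -2.30 ± 0.21, and did not overlap. SYT13, an atypical synaptotagmin, was at 51.0 to 195 CPM in α-cells (median 115) and at 160 to 820 CPM in β-cells (median 470), with a log2 fold change of 1.94 ± 0.16. PTPRN, a granule membrane protein, had the highest level of the list and was higher in α-cells in all 16 monkeys (-0.65 ± 0.10). The zinc transporter SLC30A8, which fills insulin granules with zinc, was close in both types, at 330 to 627 CPM in α-cells (median 501) and 333 to 860 CPM in β-cells (median 586), with a log2 fold change of 0.26 ± 0.09 (edgeR adjusted p = 0.0210), and the call was lost under 6 other settings and without old male 1, old male 2, young female 2 or young male 1 (adjusted p from 0.0502 to 0.0647). SLC39A14, a zinc importer (1.17 ± 0.10), exceeded its α-cell level in all 16 monkeys, and of 18 tested zinc and metallothionein genes 6 were higher in β-cells and 5 in α-cells.

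Immediate-early genes, which cells transcribe within minutes of a stimulus or stress, were higher in α-cells almost throughout. Of 17 tested, 16 were higher in α-cells past 2-fold and none in β-cells, against 15.5% and 6.21% of all genes, with a median log2 fold change of -2.46. FOS was at 407 to 2510 CPM in α-cells (median 1423) and at 93.1 to 506 CPM in β-cells (median 235), a log2 fold change of -2.38 ± 0.12. NR4A1, a nuclear receptor, was at 269 to 1634 CPM in α-cells (median 780) and at 72.5 to 323 CPM in β-cells (median 136), a log2 fold change of -2.43 ± 0.09. Both were higher in α-cells in all 16 monkeys, although the ranges of the types overlapped, because monkeys that were low in α-cells were below others that were high in β-cells. EGR1 (-2.10 ± 0.10), DUSP1 (-2.46 ± 0.12), BTG2 (-2.12 ± 0.08), EGR2 (-3.08 ± 0.23), NR4A2 (-3.11 ± 0.11) and NR4A3 (-4.93 ± 0.55) were higher in α-cells in all 16 as well.

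Summed over the 17 genes, the level was between 1686 and 8037 CPM in α-cells (median 4707) and between 446 and 1673 CPM in β-cells (median 861), and β-cells had 0.105 to 0.296 of the α-cell level of the same monkey. IER3 was the member that was not called (-0.02 ± 0.26, edgeR adjusted p = 0.962), and its sign turned under 8 other settings. The stress genes ATF3 (-2.54 ± 0.32) and PPP1R15A (-1.57 ± 0.21), listed with the ATF4 targets, were higher in α-cells in 15 of 16 monkeys. Among the 9 tested NF-kB genes, 2 were higher in β-cells and 1 in α-cells, NFKBIZ (-1.09 ± 0.18), against 18.3% and 26.2% of all genes.

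Genes of the machinery that folds and exports secretory proteins were higher in β-cells more often than in α-cells. Of 29 tested ER chaperones and oxidoreductases, 19 were higher in β-cells, 3 in α-cells and 7 were not called, against 18.3% and 26.2% of all genes, with a median log2 fold change of 0.44. ERO1B, the oxidase that supplies disulfide bonds to proinsulin, was at 62.8 to 283 CPM in α-cells (median 116) and at 639 to 2182 CPM in β-cells (median 1617), a log2 fold change of 3.52 ± 0.16 without overlap. FKBP11, a prolyl isomerase (2.06 ± 0.22), and DNAJB9, a cochaperone of BiP (1.84 ± 0.20), followed, in 15 and 16 monkeys. The 3 genes higher in α-cells included PDIA5, a protein disulfide isomerase (-1.37 ± 0.13), and the lectin chaperone CALR (-0.35 ± 0.10), in 16 and 12 monkeys. Summed over the list, the level was between 4313 and 8191 CPM in α-cells (median 5968) and between 6102 and 18569 CPM in β-cells (median 9575), higher in β-cells in 14 of 16 monkeys.

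Of 54 tested genes of the translocon, of glycosylation and of ER-Golgi transport, 31 were higher in β-cells and 4 in α-cells, against 18.3% and 26.2% of all genes (median 0.32). The cargo receptors LMAN1 (1.27 ± 0.11) and SURF4 (1.20 ± 0.08) were higher in β-cells in all 16 monkeys without overlap, with SURF4 at 191 to 369 CPM in α-cells (median 309) and at 393 to 947 CPM in β-cells (median 691). SPCS3, a signal peptidase subunit (1.16 ± 0.12), was higher in 15, whereas SSR4, a subunit of the translocon-associated complex and the member with the highest level, was higher in α-cells in 15 (-0.57 ± 0.09). ER-associated degradation had 8 of 18 tested genes higher in β-cells and 2 in α-cells, with EDEM2, which trims mannose from misfolded glycoproteins (1.15 ± 0.18), and HERPUD1 (0.98 ± 0.11) among the former. The sensors and ATF4 targets of the unfolded protein response had 2 of 17 higher in β-cells, ATF6 (0.71 ± 0.19) being one, and 4 higher in α-cells.

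Mitochondrially coded transcripts took a larger share of β-cells. All 13 tested were positive, 12 of them called higher in β-cells and none in α-cells, against 18.3% and 26.2% of all genes. Their median log2 fold change was 0.68. Of the TMM-scaled counts, hormones left out, the 13 genes held between 1.96 and 5.40% in α-cells (median 3.77%) and between 2.66 and 8.84% in β-cells (median 5.997%), and were higher in β-cells in all 16 monkeys. Old male 1 had the lowest share and young male 1 the next in both types. CYTB, a subunit of respiratory complex III, was at 1327 to 6779 CPM in α-cells (median 2319) and at 2730 to 10856 CPM in β-cells (median 5297), a log2 fold change of 0.99 ± 0.09. COX2 (MT-CO2) stood apart in these 2 monkeys in both types, at 24.1 CPM in α-cells and 29.97 CPM in β-cells of young male 1 and at 522 and 684 CPM in old male 1, against medians of 9860 and 15184 CPM. ND3, a subunit of complex I, was low there too, at 83.8 CPM in α-cells and 77.2 CPM in β-cells of young male 1 and at 83.6 and 107 CPM in old male 1, so that the low ends of the mitochondrial share lie in the monkeys with few counts of both genes, and the cause was not tested. COX2 was higher in β-cells in all 16 (0.61 ± 0.06).

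Of 44 tested nuclear-coded subunits of the same complexes, 4 were higher in β-cells and 13 in α-cells, against 18.3% and 26.2% of all genes. None was past 2-fold, and the median of -0.12 was near that of all genes. COX8A (-0.56 ± 0.06) and COX7C (-0.46 ± 0.06), subunits of complex IV, were higher in α-cells in all 16 monkeys. Scaled to the spike-ins, the median of this list turned to 0.09 and 10 genes were higher in β-cells and 2 in α-cells, while the mitochondrially coded genes had a median of 0.89 with all 13 called.

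Small shifts ran through protein synthesis and breakdown. Of 51 tested cytosolic ribosomal protein genes, 18 were higher in β-cells and 4 in α-cells, against 18.3% and 26.2% of all genes, none past 2-fold, with a median log2 fold change of 0.13. RPS6 was at 1114 to 1594 CPM in α-cells (median 1308) and at 1396 to 2326 CPM in β-cells (median 1913), a log2 fold change of 0.52 ± 0.06, and RPLP0 went the other way (-0.33 ± 0.07). Ribosomal protein genes have many processed copies with which reads can be shared, so single values are uncertain. Of 32 proteasome genes, 16 were higher in β-cells and 1 in α-cells (median 0.24). The base subunit PSMD1 (1.13 ± 0.10) and the lid subunit PSMD3 (-0.59 ± 0.09) were at the ends of the well-counted members.

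Metabolic lists held opposite members, against 18.3% of all genes higher in β-cells and 26.2% in α-cells. SCD, a fatty acid desaturase, was at 14.02 to 54.8 CPM in α-cells (median 23.8) and at 61.8 to 320 CPM in β-cells (median 174), a log2 fold change of 2.72 ± 0.14 without overlap. ACLY, which makes cytosolic acetyl-CoA, stood above its α-cell level in all 16 monkeys (1.11 ± 0.09), and FADS2 was higher in α-cells in all 16 (-2.23 ± 0.30), among 8 genes of lipid synthesis higher in β-cells and 3 in α-cells of 22. ME1, the malic enzyme that makes cytosolic NADPH (1.58 ± 0.19), and OGDH of the citric acid cycle (-1.24 ± 0.18) were the extremes of their list, which had 6 genes in each direction of 34. ACOT7, an acyl-CoA thioesterase that β-cells are known to keep low, was at 79.7 to 231 CPM in α-cells (median 123) and at 6.32 to 24.3 CPM in β-cells (median 16.6), a log2 fold change of -3.03 ± 0.13 without overlap. It was among 4 of 8 tested β-cell disallowed genes higher in α-cells, and 2 were higher in β-cells. The median of that list was -0.75, but it was 0.15 with equal cell numbers, where 2 genes were higher in α-cells and 1 in β-cells. In old monkeys alone 2 were higher in α-cells and 3 in β-cells.

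Amino acid transport and metabolism had 14 of 26 tested genes higher in α-cells and SLC38A2, a neutral amino acid transporter, alone higher in β-cells (1.88 ± 0.28), against 26.2% and 18.3% of all genes, with a median of -0.65 (-0.38 with equal cell numbers). SLC7A8, an exchanger of large neutral amino acids, had the highest level, at 828.7 to 2544 CPM in α-cells (median 1610) and at 491 to 1524 CPM in β-cells (median 867), a log2 fold change of -0.80 ± 0.06, and was higher in α-cells in all 16 monkeys. Its relative SLC7A5 had a log2 fold change of -3.30 ± 0.35. Of the 26 tested antioxidant genes 8 were higher in β-cells and 3 in α-cells. GPX2, a glutathione peroxidase (2.36 ± 0.13), was higher in the β-cells of all 16, and TXNIP, an inhibitor of thioredoxin that glucose induces, ranged from 15.97 to 1223 CPM in β-cells (median 294) and was higher there in 12 (2.25 ± 0.46).

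Of 31 tested adhesion and guidance genes, 20 were higher in α-cells, 16 of them past 2-fold, and 3 in β-cells, against 26.2% (15.5% past 2-fold) and 18.3% of all genes, with a median log2 fold change of -1.30. With equal cell numbers 14 were higher in α-cells and the median was -0.71, and with cells thinned to 10000 UMIs they were 12 and -0.53. EFNB2, a ligand of Eph receptors, was at 21.7 to 76.8 CPM in α-cells (median 29.9) and at 0.510 to 6.64 CPM in β-cells (median 2.18), a log2 fold change of -3.95 ± 0.24 without overlap. The receptor EPHA7 (-4.50 ± 0.30) and the synaptic adhesion gene NRXN2 (-5.71 ± 0.50, 0 counts in the β-cells of 10 monkeys) were higher in α-cells in all 16, and CDH2, N-cadherin, was higher in the β-cells of all 16 (1.31 ± 0.16).

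Of 15 cyclins and inhibitors of cyclin-dependent kinases, 6 were higher in α-cells and 2 in β-cells, against 26.2% and 18.3% of all genes. CDKN1C, the imprinted inhibitor p57, was at 19.7 to 145 CPM in α-cells (median 51.5) and at 1.86 to 37.1 CPM in β-cells (median 3.58), a log2 fold change of -3.28 ± 0.27. CCND1, cyclin D1, was higher in β-cells in 15 of 16 monkeys (2.61 ± 0.30) and CCNE1, cyclin E1, higher in α-cells in all 16 (-1.45 ± 0.14). Among 16 imprinted genes, NNAT, a small membrane protein of the ER, was at 222 to 958 CPM in α-cells (median 581) and at 1217 to 2515 CPM in β-cells (median 1689), a log2 fold change of 1.70 ± 0.10 without overlap. B2M, the light chain of class I antigen presentation, was higher in α-cells in all 16 (-1.003 ± 0.12), although 12 of the 27 genes of its list, STAT2 (1.48 ± 0.32) among them, were higher in β-cells and 2 in α-cells.

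The remaining lists held members of both directions, and their counts are to be read against the 18.3% of all genes that were higher in β-cells and the 26.2% higher in α-cells. Of 10 monoamine and GABA genes, 4 were higher in β-cells, led by TH and GAD2, and 5 in α-cells, led by MAOB. Those 5 included SLC18A2, the vesicular monoamine transporter (-0.95 ± 0.18), and GCH1, which makes the cofactor of TH (-0.91 ± 0.15). TH and GCH1 thus differed in opposite directions. Of 20 genes of cAMP production and breakdown, 4 were higher in β-cells and 9 in α-cells, with the phosphodiesterase PDE1C (-3.47 ± 0.40) the largest, and GNAS, the stimulatory G protein, had the highest level and a small difference toward α-cells (-0.39 ± 0.06). Of 39 lysosome and autophagy genes, 9 were higher in β-cells, with the regulator TFEB in all 16 monkeys (1.80 ± 0.20), and 14 in α-cells. Of 25 insulin and IGF signalling genes, 5 were higher in each type, with IGFBP3, a binding protein of the IGFs, higher in α-cells in all 16 (-2.69 ± 0.26). Of 21 genes of monogenic diabetes, 9 were higher in β-cells, among them SLC2A2, PDX1, GLIS3 and ABCC8, and 6 in α-cells, among them HNF4A. The peptide gene PYY, which some islet endocrine cells express beside their main hormone, was higher in α-cells in 15 of 16 monkeys (-3.03 ± 0.31).

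**Figure D4:**
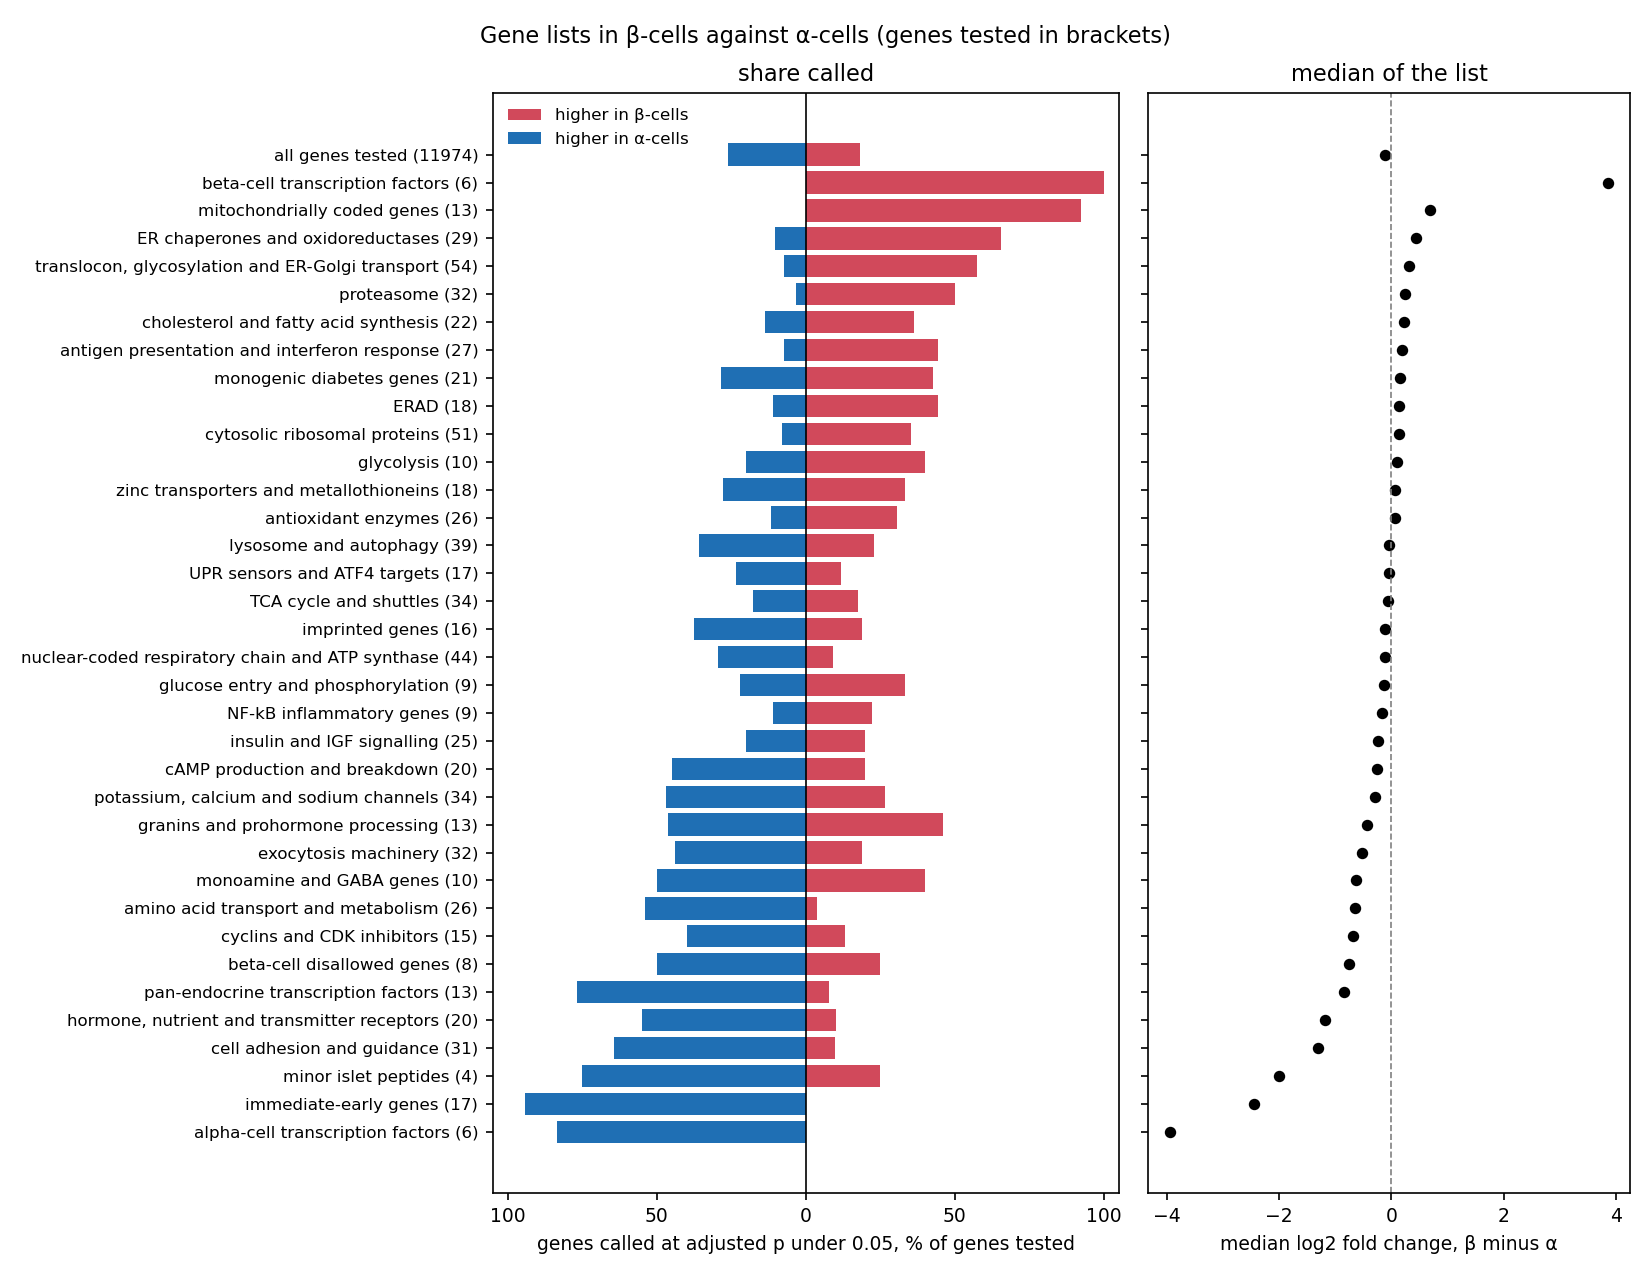
For each of 35 gene lists and for all 11974 genes, the left panel shows the percentage of tested genes called higher in β-cells (red) and in α-cells (blue) at an edgeR adjusted p under 0.05, and the right panel shows the median log2 fold change of β-cells against α-cells. Immediate-early genes lie far to the α-cell side (median -2.46), mitochondrially coded genes (0.68) and ER chaperones (0.44) to the β-cell side, and the median of all genes was -0.11.

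RNA content was measured as macaque UMIs per spike-in UMI, since the same spike-in RNAs were read in every well. The median over the α-cells of a monkey was between 14.5 and 24.98 (median 18.1) and over its β-cells between 13.3 and 31.0 (median 20.7). β-cells had more RNA in 12 of 16 monkeys, with a mean log2 ratio of 0.17 ± 0.25 (SD, n = 16), a 1.12-fold difference (exact sign-flip permutation test, two-sided, p = 0.0173, adjusted over 3 measures 0.0260). The types overlapped widely. When cells were compared within each library only, the mean was 0.10 (p = 0.147), and with the top hormone at least 3 times the second it was 0.13 in 14 monkeys (p = 0.146), so the call did not hold under either.

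Macaque UMIs per cell did not pass the same exact test (mean log2 ratio 0.11, higher in β-cells in 11 of 16 monkeys, p = 0.208). The number of genes found in 10000 UMIs was higher in β-cells in 14 of 16 monkeys, at 1429 to 2758 against 1559 to 2562 in α-cells (medians 2548 and 2416), with a mean log2 ratio of 0.06 (exact permutation test, adjusted p = 0.0225). That call was lost with the top hormone at least 3 times the second (0.0078, p = 0.883). The hormones counted in all of these values, and cells under 10000 UMIs had been left out.

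The difference in RNA content was found in old monkeys. The ratio of β-cells to α-cells was between 1.15 and 1.62 in the 8 old monkeys (median 1.22), above 1 in all 8, and between 0.749 and 1.23 in the 8 young monkeys (median 1.01), above 1 in 4. The mean log2 ratio was 0.34 ± 0.16 in old and -0.0056 ± 0.20 in young monkeys (SD, n = 8 each), a difference of 0.35 (exact permutation test over monkeys, two-sided, p = 0.000777, adjusted over 6 comparisons 0.00466). Young male 1, at 1.23, was the only young monkey within the range of the old ones.

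The 2 types differed in their change with age. The RNA content of α-cells was between 14.5 and 24.98 in old monkeys (median 18.3) and between 16.6 and 19.7 in young monkeys (median 18.1), a log2 difference of 0.0070 (exact permutation test, p = 0.945), whereas that of β-cells was between 17.2 and 31.0 in old (median 23.1) and between 13.3 and 21.6 in young monkeys (median 18.5), a log2 difference of 0.35 (exact permutation test, p = 0.00948, adjusted over 6 comparisons 0.0284). Within females the difference of the log2 ratio between age groups was 0.24 (exact permutation test, 4 against 4, p = 0.0286, the smallest possible) and within males 0.45 (p = 0.0571). Each old or young monkey was a separate day of collection, so the age groups also differ in their days of collection and age and day cannot be told apart. The number of β-cells per monkey was as low as 8 in young and 17 in old monkeys. Between males and females the mean log2 ratio was 0.17 in both (exact permutation test, p = 1.0).

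**Figure D5:**
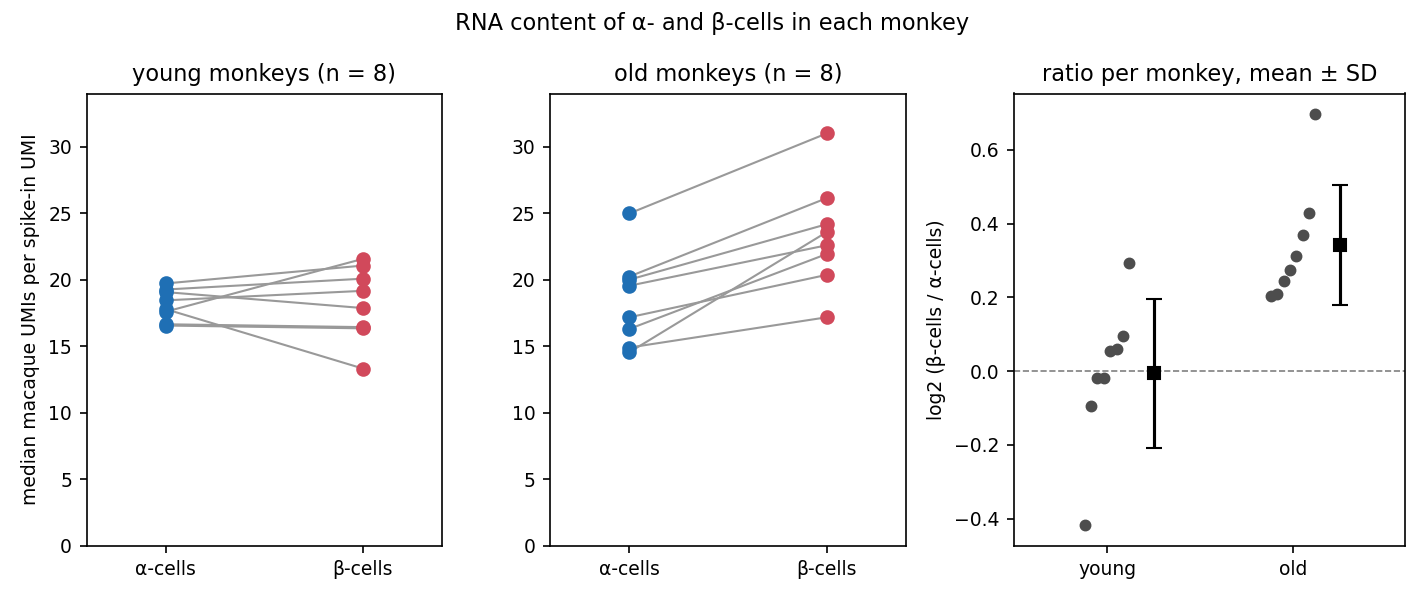
Lines in the left and middle panels join the median RNA content of the α-cells and β-cells of each monkey, in macaque UMIs per spike-in UMI, for 8 young and 8 old monkeys, and the right panel shows the log2 ratio per monkey with the mean and SD as a square with bars. All 8 old monkeys rise from α- to β-cells (mean log2 ratio 0.34), and 4 of the 8 young monkeys do.

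Whether the difference of any gene between types changed with age was asked by an interaction in the same model. edgeR called 0 of 11974 genes (0%) at an adjusted p under 0.05, with 615 at an unadjusted p under 0.05, and DESeq2 called 6. On counts with planted changes edgeR recovered 10% of interactions of 1 on the log2 scale with age and 0% of those of 0.5, so most such changes would have been missed. The 6 genes that DESeq2 called were IFNAR2, SLC25A1, ST6GAL1, FBXO16, FYB2 and FAM135B, and 3 of them are given for their values, chosen after they were seen. IFNAR2, a subunit of the type I interferon receptor, had a log2 fold change of -2.43 in young and 0.80 in old monkeys, with an interaction of 3.22 ± 0.59 (edgeR adjusted p = 0.0684). Its mean level was low, at 9.32 CPM in α-cells and 8.04 CPM in β-cells, and 3 UMIs were worth 9.48 CPM in the β-cells of young female 2. Its change with age within β-cells was not called (2.88 ± 0.64, edgeR adjusted p = 0.182). SLC25A1, the mitochondrial citrate carrier, had a log2 fold change of -0.04 in young and -1.08 in old monkeys (interaction -1.04 ± 0.19, edgeR adjusted p = 0.0684), and its change with age was 0.04 in α-cells and -1.01 in β-cells. ST6GAL1, a sialyltransferase, had -3.72 in young and -1.88 in old monkeys (interaction 1.84 ± 0.37, edgeR adjusted p = 0.140), and edgeR called it without young female 1 (2.13, adjusted p = 0.0190) and with at least 30 cells of each type (2.43, adjusted p = 0.00920).

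Without an edgeR call for any single gene, lists differed in their direction. Of the 29 ER chaperone genes, 25 had a difference further toward β-cells in old monkeys, and the median of the list was 0.16 in young and 0.63 in old monkeys. Of the 54 genes of translocon, glycosylation and ER-Golgi transport, 50 did, with medians of 0.22 and 0.52. All 17 immediate-early genes did, with medians of -2.74 and -2.20. Of the 13 mitochondrially coded genes 8 did, with medians of 0.66 and 0.70. Among all genes tested, 6499 (54.3%) did. Over the 35 lists the share ran from 2 of 10 monoamine and GABA genes to all immediate-early genes, with a median of 51.0%, and the other list at 85% or more was that of β-cell disallowed genes (7 of 8). These counts are a description with no test, since genes of a list share their monkeys and were listed with earlier results of these data known. RNA content, given above, moved with age in the same cells, and its part in these shifts was not tested.

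For sex, edgeR called 0 of 11974 genes (0%), with 395 at an unadjusted p under 0.05, and DESeq2 called 2, COL4A2, a basement membrane collagen chain, and DHRS3, a retinal reductase. Between types, 1335 genes were higher in β-cells and 1952 in α-cells in females alone, and 1393 and 1898 in males alone.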

How the data were processed

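Single islet cells of 16 cynomolgus monkeys were sequenced in 64 libraries. The authors demultiplexed reads with CASAVA 1.8, aligned them with TopHat 2.0.12 to the assembly Macaca_fascicularis_5.0, assigned unique alignments to genes with HTSeq, and deposited raw UMI counts of every gene in every cell. The strand setting of the counting is not given in the sources used here, so antisense, overlapping and near-identical genes are uncertain. The tables held 21041 macaque genes and 95 spike-in rows (92 ERCC, 3 RGC), which were taken out before CPM was computed. No genome of that assembly was at hand, and no coordinates or sequences are printed.

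The rule for α- and β-cells, the gene lists and the comparisons were chosen with earlier results of these data known. No filter on mapping rate was applied. Doublets were not called, and an alternative omitted the cells with UMI totals past the 95th percentile. For each monkey, the counts of all its α-cells and of all its β-cells were added up (5 cells or more), and the sums were compared with edgeR 4.0.16 under R 4.3.3 (filterByExpr, TMM, quasi-likelihood test, two-sided, monkey and cell type in the model, Benjamini-Hochberg over 11974 genes, adjusted p under 0.05). The pairing comes from both types being cells of 1 animal. The SE is the fold change divided by the square root of F. Fold changes carry edgeR's prior count, so those of genes near 0 in 1 type depend on it. RNA content was compared by exact permutation tests over monkeys on medians over cells. On simulated counts with 100 changes of 1 and 100 of 0.5 on the log2 scale, edgeR recovered 58% and 15% between types with 1 false call. No other gene differed between types in that simulation, whereas 18.3% and 26.2% of genes were called in the data. The adjustment of p was therefore stricter there, and these percentages do not measure the recovery of the comparison between types. Further tools were limma 3.58.1, DESeq2 1.42.0, Python 3.11.15, numpy 2.4.6, pandas 2.3.3 and scipy 1.17.1.

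The genes named are the 12 with the largest fold change toward each type among those called, higher in the same type in all 16 monkeys, at a mean of at least 50 CPM in that type and with a symbol, in each list up to 3 called members toward each type and the member with the highest CPM, and members of the lists of transcription factors, of granins and processing and of glucose entry. Marker genes are named as such. Some genes that this rule names are not reported here. BTG2, DUSP1, EGR1, IER3 and NR4A1 were named outside that rule, after their values were seen. Alternatives were DESeq2, limma, no filter on low counts, hormones kept in, no block, scaling to spike-ins, cells thinned to 10000 UMIs, equal cell numbers, no cells above the 95th percentile, over 2000 genes and 20000 UMIs, at least 30 cells of each type, each age group and sex alone, and leaving out each monkey.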

Additional observations from a re-analysis of the deposited data

Results flagged for a closer look

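The RNA content ratio of β-cells to α-cells in old male 3, at 1.62, stood apart from the other 7 old monkeys, whose ratios were between 1.15 and 1.35, by Dixon's test at 95%, which flags about 1 in 20 groups by chance. The test was run on this ratio and on the RNA content of α-cells and of β-cells, each in young and in old monkeys. It flagged only this value, so the chance of a flag somewhere in the search was larger than for 1 group. Its α-cells had the lowest RNA content of the 16 monkeys (14.5 macaque UMIs per spike-in UMI), and its β-cells stood at 23.6.

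The log2 ratio of RNA content between β-cells and α-cells differed between age groups, with old minus young at 0.35 (exact permutation test over monkeys, p = 0.000777). Over the other settings this difference was between 0.27 and 0.40, with p between 0.000155 and 0.0353, and leaving out each monkey in turn gave 0.29 to 0.39.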

How the results depend on the processing

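The calls between types depended on depth, cell number and scale more than on single monkeys, with no call turned. No filter on low counts gave 2894 genes higher in α-cells past 2-fold, cells thinned to 10000 UMIs gave 473 (β) and 880 (α) past 2-fold, equal cell numbers 1845 higher in α-cells and 1072 past 2-fold, and spike-in scaling 2087 higher in α-cells. limma gave 3651 higher in β-cells, and 239 (β) and 158 (α) past 2-fold on its log scale. Fits of 8 monkeys called fewer genes, 1083 (β) and 1670 (α) in young monkeys, 1827 and 2329 in old monkeys, 1335 and 1952 in females, and 1393 and 1898 in males, and 3 times the second hormone as the limit, chosen after seeing the data, gave 1382 in β-cells. The planned limit of 10 times left 1 monkey with enough β-cells and was not run. Without the pairing of types by monkey (no replicate block), 2365 genes were higher in β-cells and 2434 in α-cells, 887 and 1439 past 2-fold, and 0 genes changed their difference with age or with sex. Leaving out each monkey gave 1946 to 2309 genes in β-cells and 2954 to 3220 in α-cells, 694 to 771 and 1814 to 1972 past 2-fold, 0 to 1 for the change with age (ST6GAL1, without young female 1) and 0 to 0 for sex. DESeq2 gave 6 and 2 genes for these, and at least 30 cells of each type gave 1 (ST6GAL1) for age.

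RNA content gave a mean log2 ratio of 0.0999 within libraries and 0.13 at 3 times the second hormone, both without a call, and 0.13 to 0.21 without 1 monkey. UMIs per cell turned to -0.043 at 3 times the second hormone, and passed at 0.21 with at least 30 cells of each type (exact permutation test, p = 0.0352) and at 0.17 without young female 2, of a range of 0.083 to 0.17. Genes per cell fell to 0.0078 at 3 times the second hormone (0.05 to 0.07 without 1 monkey). The sex difference of the ratio had either sign, 0.0039 without cells of highest UMIs, 0.0017 without hormones, 0.011 within libraries, 0.041 within libraries with at least 3 cells of each type, 0.054 with at least 30 cells of each type, and -0.076 to 0.084 without 1 monkey. Of the named genes, those not called turned their sign under some settings. Among the 134 named genes, 1 that was not called in the main fit was called in the same direction under 2 other settings. NKX2-2 was at -0.085 with 3 times the second hormone. IER3 was at 0.088 without the pairing, 0.19 with spike-in scaling, 0.19 with equal cell numbers, 0.030 without cells of highest UMIs, 0.066 with limma, 0.013 with at least 30 cells, 0.21 in old monkeys and 0.21 in females, and at -0.14 to 0.10 without 1 monkey. Of 134 named genes, 11 lost their call under 1 to 6 settings, all at differences under 2.5 on the log2 scale, and of these SLC30A8, CALR, CPE, ATF6 and GAPDH under 3 or more. The causes were not tested.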
